A study of Mus musculus with 9 samples.

Results

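Zinc finger genes with symbols from Zfp900 to Zfp999 were examined in mouse embryonic stem cells with and without β-catenin. The genes were chosen by symbol, from array features that the gene table assigned to 1 symbol. These were 34 of the 19938 genes measured, and 28 further RefSeq genes with such symbols were not analysed here. The symbol rule used no measured value except where a gene had several features. The brightest feature by its mean over the 9 arrays then stood for the gene, which among the members applied to Zfp985 alone. Transcript levels had been measured on a whole-transcript array in 3 groups of 3 biological replicates. Flox cells, the controls, carried 1 deleted and 1 floxed allele of the β-catenin gene. In null cells both alleles were deleted. The third group, null Eα, also lacked both alleles and stably expressed a fusion protein, E-cadherin joined to α-catenin, which does not need β-catenin to hold them together. All 3 groups had a mixed S129S6-C57BL/6 background and were grown on gelatin in 15% FCS (fetal calf serum) with LIF at 1000 U/ml, a cytokine that holds mouse stem cells undifferentiated. Separate lines and repeated cultures of 1 line are not distinguished in the labels, so p-values measure the spread between these samples, and genotype and line cannot be told apart.

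Most of these genes encode KRAB zinc finger proteins. Such a protein reads DNA through a row of C2H2 zinc fingers, and its KRAB domain recruits the scaffold protein Trim28 (KAP1), which brings in the histone methyltransferase Setdb1 and heterochromatin proteins. In mouse embryonic stem cells this machinery is known for silencing endogenous retroviruses. The genes multiply by local duplication, so many lie in clusters of near copies that are found in rodents only.

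Most members were lower in null cells than in flox cells. Values are log2 signals, so that a difference of 1 is a change of 2-fold, and errors after ± are limma's standard errors. Called means a Benjamini-Hochberg adjusted p under 0.05 over all 19938 genes in limma. In null against flox cells, 21 of the 34 members fell, 2 rose and 11 were not called. That is 61.8% lower and 5.88% higher among members, whereas 28.7% of all genes were called lower and 26.5% higher (55.2% called in all). The median member difference was -0.45, against 0.06 over all genes. A fall of at least 2-fold was called for 13 members (38.2%), against 10.2% of all genes. A fall of at least 8-fold was called for 4 members, against 0.692% of all genes. The flox and null arrays did not overlap in 25 members, against 67.4% of all genes. Among the 283 numbered Zfp genes outside this range, 129 fell and 48 rose, with a median of -0.22, and 18.0% fell at least 2-fold. These counts describe the lists and were not tested against each other. In bulk RNA, fewer cells of a type and less RNA per cell cannot be told apart.

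In null Eα against flox cells, 18 members fell, 1 rose and 15 were not called, with a median of -0.35 (0.07 over all genes). Over all genes, 31.6% were called lower and 32.1% higher in that comparison (63.7% called in all). At least 2-fold falls were called for 4 members there, which is 11.8% of them, against 9.75% of all genes and 13.8% of the other numbered Zfp genes. Of those 283 other genes 147 fell (51.9%, against 52.9% of members) and 48 rose, with a median of -0.31. The arrays of those groups did not overlap in 20 members, against 69.5% of all genes. In null Eα against null cells, 12 members rose, 3 fell and 19 were not called, with a median of 0.10 (0.05 over all genes). The background there was 13.6% higher and 18.1% lower (31.7% called in all). A rise of at least 2-fold was called for 6 members (17.6%), against 1.70% of all genes and 4.24% of the other numbered Zfp genes. The null Eα and null arrays did not overlap in 16 members, against 43.1% of all genes. The 3 comparisons share arrays, so they are not independent of each other.

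**Figure D1:**
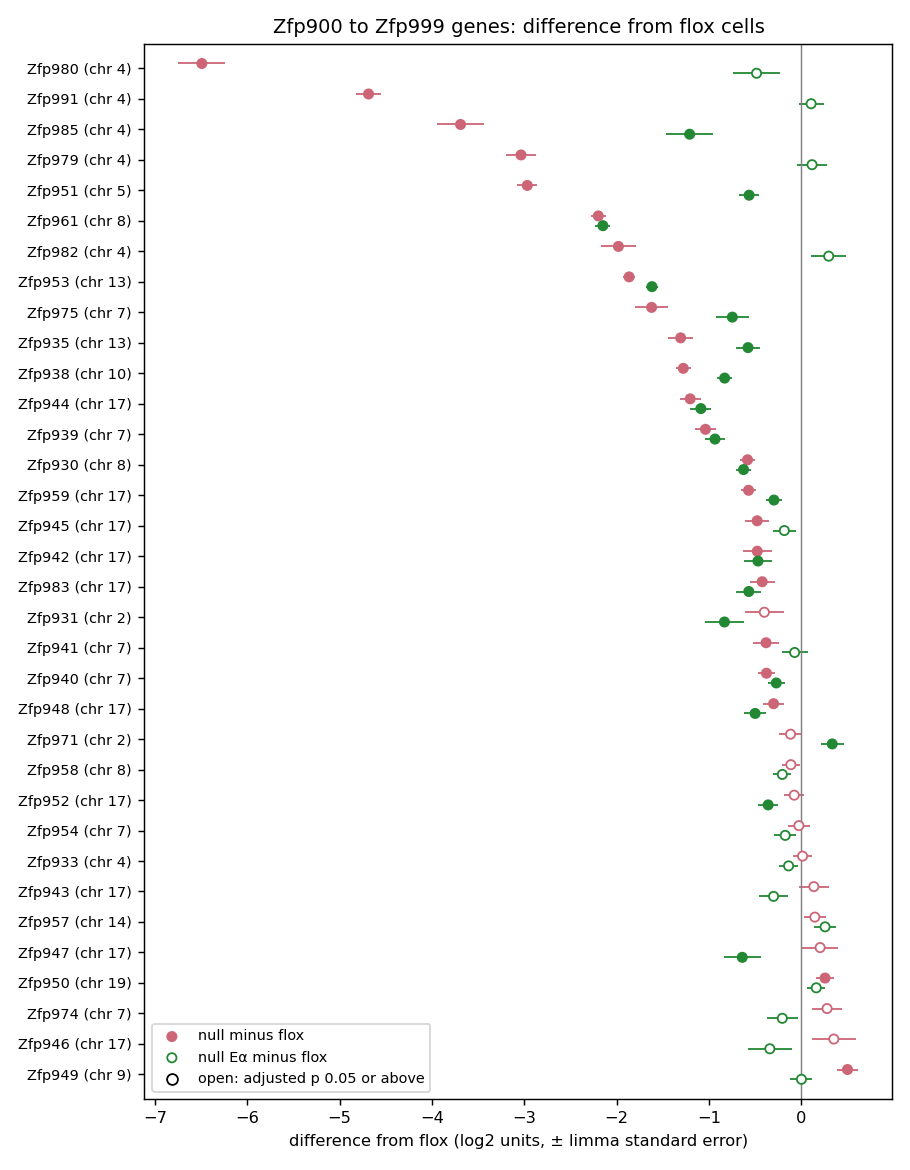
Difference from flox cells in log2 units (x axis, bars are limma standard errors) for each of the 34 members (y axis, with chromosome), in null cells (red) and null Eα cells (green). Filled points have an adjusted p under 0.05. The lowest red points, from -6.49 for Zfp980 to -1.98 for Zfp982, are mostly chromosome 4 genes. The green points of those chromosome 4 genes run from -1.21 for Zfp985 to 0.29 for Zfp982. Zfp961 and Zfp953 have both points far to the left.

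Other measures moved with the groups. All 10 embryonic stem cell markers examined were above the dim level in every group, where dim means that a group's mean lies below the first quartile of the features on its arrays. In null cells 9 of the 10 fell and 1 rose, and in null Eα against null cells 10 of the 10 rose. Their mean log2 level per array was 10.92 to 10.98 in flox, 8.53 to 8.86 in null and 10.65 to 10.83 in null Eα cells. Of 12 fibroblast markers, 10 rose in each line against flox, with array means of 5.38 to 5.51, 7.89 to 8.60 and 7.32 to 7.66, and 3, 0 and 1 of them were dim. Of 8 primitive endoderm markers, 3 rose and 2 fell in null cells, and 4 rose and 0 fell in null Eα cells, against flox. From null to null Eα cells, 6 of the 12 fibroblast markers fell and 0 rose, and 3 endoderm markers rose and 1 fell. Over all genes, 26.5% were called higher and 28.7% lower in null cells against flox. These shares were 32.1% and 31.6% in null Eα against flox, and 13.6% and 18.1% in null Eα against null cells. The part of these shifts in the zinc finger results was not tested. Null Eα replicate 3 correlated at 0.978 to 0.980 with the null arrays over all features, and null Eα replicates 1 and 2 at 0.964 to 0.970. The interquartile range of the arrays was 3.75 to 3.84 in flox, 3.41 to 3.46 in null and 3.21 to 3.37 in null Eα cells. β-catenin's own gene, Ctnnb1, read 11.16 in flox, 10.51 in null and 10.23 in null Eα cells. It was called lower in both lines, but its feature is not known to lie within the deleted part, so the signal is no check of the deletion.

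The largest changes lay on distal chromosome 4, where 6 members map. Zfp980 read 10.50, 10.65 and 10.56 on the flox arrays, 4.53, 3.96 and 3.74 on the null arrays and 10.19, 10.55 and 9.50 on the null Eα arrays. All 3 null arrays thus lay far below the other 6, and null Eα replicate 3 was the lowest of its group. The difference in null cells was -6.49 ± 0.25 (adjusted p = 1.74e-08), the 4th largest fall of the 19938 genes. The null signal was at most 1.11% of the flox signal. The rise in null Eα against null cells was 6.00 ± 0.25 (adjusted p = 2.39e-07), the 4th largest rise as measured. Both differences are lower bounds in size, as the null level was dim. Against flox, null Eα cells differed by -0.49 ± 0.25 (adjusted p = 0.115), which is not called. That difference was -0.72 and called without null Eα replicate 2 (adjusted p = 0.0313), and -0.20 and not called without null Eα replicate 3 (adjusted p = 0.406).

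Zfp991 lies further along, with 45 genes between, and was likewise low on the null arrays alone. It read 10.35, 10.19 and 10.20 in flox, 5.68, 5.41 and 5.57 in null and 10.42, 10.60 and 10.03 in null Eα cells. The null arrays did not overlap either other group, whereas flox and null Eα arrays did overlap. It fell by 4.69 on the log2 scale in null cells (± 0.14, adjusted p = 2.75e-09), to 3.88% of the flox signal. The null Eα level differed from flox by 0.10 ± 0.14 (adjusted p = 0.514). Without null Eα replicate 3 the difference was 0.26 and was called (adjusted p = 0.0445).

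Zfp985 behaved alike in null cells but did not reach the flox level with the fusion. Its arrays read 7.89, 8.01 and 7.77 in flox, 4.60, 3.90 and 4.08 in null and 6.27, 7.32 and 6.45 in null Eα cells. The 3 groups did not overlap. Its difference in null cells was -3.69 ± 0.25, a lower bound in size as the null level was dim, and it stayed below flox in null Eα cells (-1.21 ± 0.25, adjusted p = 0.00218). Its other 2 features had the same order of groups. One read 6.47 to 6.57 in flox, 2.79 to 3.52 in null and 4.87 to 5.90 in null Eα cells, and the other 7.86 or more, 3.25 to 3.42 and 6.44 to 6.87.

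Zfp979 read 9.55, 9.56 and 9.69 in flox, 6.58, 6.76 and 6.35 in null and 9.68, 10.09 and 9.38 in null Eα cells. It fell by 3.04 in null cells (± 0.16, adjusted p = 1.40e-07) and its null Eα level differed from flox by 0.11 ± 0.16. Zfp982 is described in mouse embryonic stem cells as a factor that favours the stem cell state. It read 6.14, 6.12 and 6.27 in flox, 4.31, 3.89 and 4.40 in null and 6.19, 6.94 and 6.29 in null Eα cells. Its difference in null cells was -1.98 ± 0.19 (adjusted p = 8.18e-06), a lower bound in size since the null level was dim. The null Eα arrays of both genes overlapped the flox arrays, and null Eα replicate 2 was the highest array of each.

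Zfp933, the last member of the row, did not share this. It read 7.06, 7.17 and 7.44 in flox, 7.20, 7.31 and 7.20 in null and 7.16, 6.98 and 7.12 in null Eα cells, and the null-minus-flox difference was 0.01 ± 0.10 (adjusted p = 0.93). The pseudogene Rps19-ps3 between Zfp979 and Zfp933 differed by 0.00 and 0.05 from flox in null and null Eα cells, neither called. On the other side, Zfp600, another zinc finger gene between Zfp980 and Zfp991, averaged 8.32 in flox, 3.68 in null and 8.13 in null Eα cells. Past Zfp933, Miip was lower in both lines (-1.43 and -1.17 from flox), and Fv1, a retrovirus restriction gene, was higher in both (1.44 and 0.86). In the neighbourhood from Zfp991 to Zfp933, 4 of 5 members fell in null cells with a median of -3.04, where 28.7% of all genes were called lower. In null Eα cells 1 of the 5 was called against flox, with a median of 0.10, where 63.7% of all genes were called. With each chromosome centred Zfp982 was also called, as higher. The brighter genes of chromosome 4 as a whole had median differences from flox of -0.16 in null and -0.24 in null Eα cells.

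**Figure D2:**
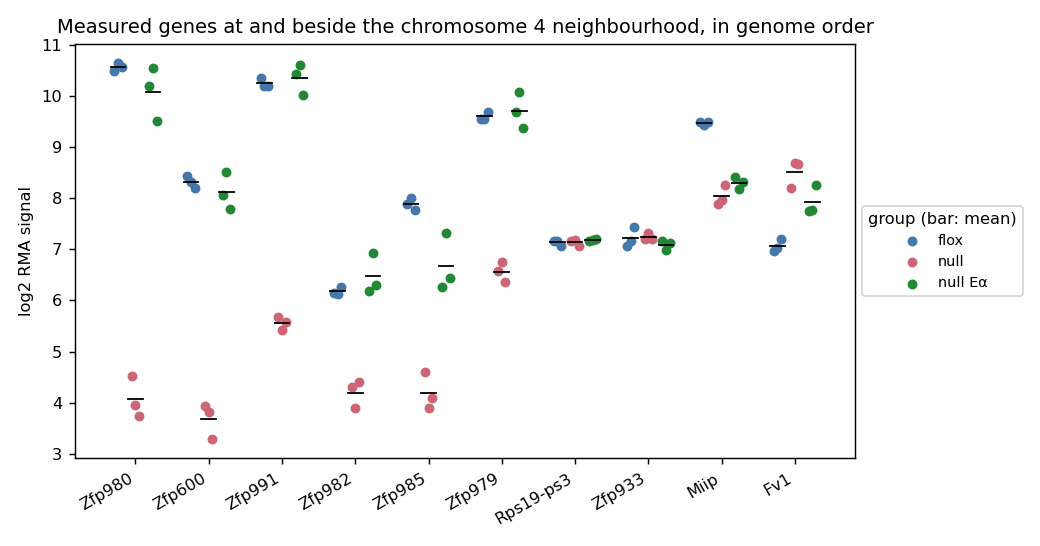
Log2 signal (y axis) on each array for the members of distal chromosome 4 and their measured neighbours in genome order (x axis), with flox arrays in blue, null in red and null Eα in green, and black bars for group means. From Zfp980 to Zfp979 the mean differences of red from blue run from -6.49 to -1.98, while Rps19-ps3 and Zfp933 have all 3 colours at about the same level.

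**Figure D3:**
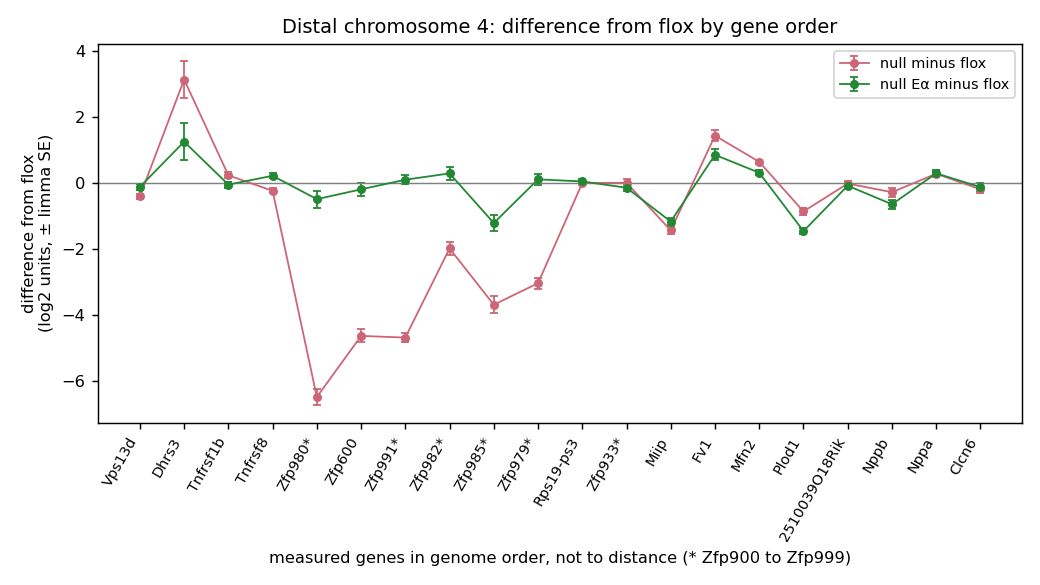
Difference from flox (y axis, log2 units, bars are limma standard errors) along the measured genes of distal chromosome 4 in genome order, not to distance (x axis), in null (red) and null Eα cells (green). The red line drops to -6.49 at Zfp980 and returns to 0.00 at Rps19-ps3, and the green line stays between -1.21 and 0.29 over the same genes.

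The promoters of 4 of the 6 chromosome 4 members are near copies of each other. RefSeq promoters (assembly GRCm38.p6, 250 bases before to 50 after each start) were matched for 32 of the 34 members, and Zfp991 and Zfp930 were not matched. The promoters of Zfp980, Zfp982 (the second of its 3 listed starts), Zfp985 and Zfp979 were 80.6% to 89.5% identical in their 6 pairs. The other 726 pairs of member promoters had a median identity of 46.3%. Zfp933 stood at 45.6% to 47.7% to these 4. Starts 1 and 3 of Zfp982 were less than 80% identical to the promoter of any other member. The 4 related promoters are shown as the largest group of member promoters linked by at least 80% identity. Their genes all fell in null cells and rose from null to null Eα cells. The 4 promoters share 4 unbroken runs of at least 20 bases, set in capitals. The promoters of Zfp933, the neighbour that was not called, and of Zfp951, a chromosome 5 gene with a like pattern, are shown for contrast and hold none of the runs. They lie at chr4:145670447-145670746 (Zfp980, plus strand), chr4:147492167-147492466 (Zfp982, plus), chr4:147553027-147553326 (Zfp985, plus), chr4:147642459-147642758 (Zfp979, minus), chr4:147848369-147848668 (Zfp933, minus) and chr5:104859978-104860277 (Zfp951, minus).
Zfp980: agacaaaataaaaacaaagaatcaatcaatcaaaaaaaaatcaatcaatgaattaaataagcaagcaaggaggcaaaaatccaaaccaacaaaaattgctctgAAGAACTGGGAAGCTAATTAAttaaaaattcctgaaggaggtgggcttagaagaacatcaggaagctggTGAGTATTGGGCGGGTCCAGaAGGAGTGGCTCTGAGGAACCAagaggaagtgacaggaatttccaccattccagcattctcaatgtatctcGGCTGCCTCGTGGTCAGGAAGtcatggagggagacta
Zfp982: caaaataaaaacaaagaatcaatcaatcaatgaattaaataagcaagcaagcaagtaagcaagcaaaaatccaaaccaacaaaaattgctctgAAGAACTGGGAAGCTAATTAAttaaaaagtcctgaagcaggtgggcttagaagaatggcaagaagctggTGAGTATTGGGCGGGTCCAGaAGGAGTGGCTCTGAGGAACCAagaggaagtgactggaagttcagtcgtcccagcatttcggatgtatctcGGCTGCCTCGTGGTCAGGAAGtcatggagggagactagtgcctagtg
Zfp985: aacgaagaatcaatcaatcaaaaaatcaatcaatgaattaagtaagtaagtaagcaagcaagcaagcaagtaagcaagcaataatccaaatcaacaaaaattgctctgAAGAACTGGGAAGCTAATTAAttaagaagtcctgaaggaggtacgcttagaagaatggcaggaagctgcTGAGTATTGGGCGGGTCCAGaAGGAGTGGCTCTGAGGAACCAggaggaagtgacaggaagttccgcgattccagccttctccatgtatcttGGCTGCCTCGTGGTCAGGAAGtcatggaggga
Zfp979: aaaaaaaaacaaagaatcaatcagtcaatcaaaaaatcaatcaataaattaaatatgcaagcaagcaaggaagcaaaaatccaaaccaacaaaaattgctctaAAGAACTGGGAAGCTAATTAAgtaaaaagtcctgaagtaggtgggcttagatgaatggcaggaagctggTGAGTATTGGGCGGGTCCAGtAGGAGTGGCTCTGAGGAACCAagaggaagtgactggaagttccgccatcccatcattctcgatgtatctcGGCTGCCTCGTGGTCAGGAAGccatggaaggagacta
Zfp933: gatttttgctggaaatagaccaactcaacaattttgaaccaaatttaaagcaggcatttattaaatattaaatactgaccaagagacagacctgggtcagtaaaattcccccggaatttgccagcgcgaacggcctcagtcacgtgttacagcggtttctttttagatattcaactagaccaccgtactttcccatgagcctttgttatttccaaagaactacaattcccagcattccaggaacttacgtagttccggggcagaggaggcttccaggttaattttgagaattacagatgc
Zfp951: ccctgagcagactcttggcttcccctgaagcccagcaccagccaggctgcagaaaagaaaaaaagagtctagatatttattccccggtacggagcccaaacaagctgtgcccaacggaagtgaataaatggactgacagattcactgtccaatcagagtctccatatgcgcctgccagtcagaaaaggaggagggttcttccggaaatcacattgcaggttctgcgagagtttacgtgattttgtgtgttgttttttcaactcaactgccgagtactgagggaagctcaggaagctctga

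Each run is rare among the 32851 promoters of the table. AAGAACTGGGAAGCTAATTAA and AGGAGTGGCTCTGAGGAACCA each occurred in 9 promoters (0.0274%), and TGAGTATTGGGCGGGTCCAG and GGCTGCCTCGTGGTCAGGAAG each in 7 (0.0213%), searched on both strands, and every one of these promoters lay on chromosome 4. The measured genes that held all 4 runs were Zfp600, Zfp979, Zfp980, Zfp982 and Zfp985. The runs were taken from the last 4 of these, which hold them by construction, so only Zfp600 came from the search. Each of the 5 was called lower in null cells, where 28.7% of all genes were called lower. The runs and the set of genes were picked after the values were seen, so this is a description. Like promoters also occurred in pairs elsewhere, whose differences are given side by side and were not tested against each other. Zfp942 and Zfp944 on chromosome 17 had promoters 84.3% identical and null-minus-flox differences of -0.48 and -1.20. Zfp971 and Zfp931 on chromosome 2 were 79.4% identical, with null-minus-flox differences of -0.12 and -0.40, neither called. The 4 promoters held 3 to 6 CpG sites, against a median of 7 over all promoters. Starts 1 and 3 of Zfp982, outside these 4, held 16 and 2. The letters ATCAAAG, a form of the site bound by Tcf and Lef factors, were searched on both strands. They occurred in 0 of the 4 promoters, in 5.13% of member promoters and in 3.73% of all. Only this spelling was searched, so other forms of the site were not counted. The related letters AACAAAG stand in the printed promoters of Zfp980, Zfp982 and Zfp979, and on the other strand in that of Zfp933. Whether any of these promoters is bound by such factors was not tested. Near copies can also share array probes, and whether RNA of one gene was read by the feature of another was not tested.

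**Figure D4:**
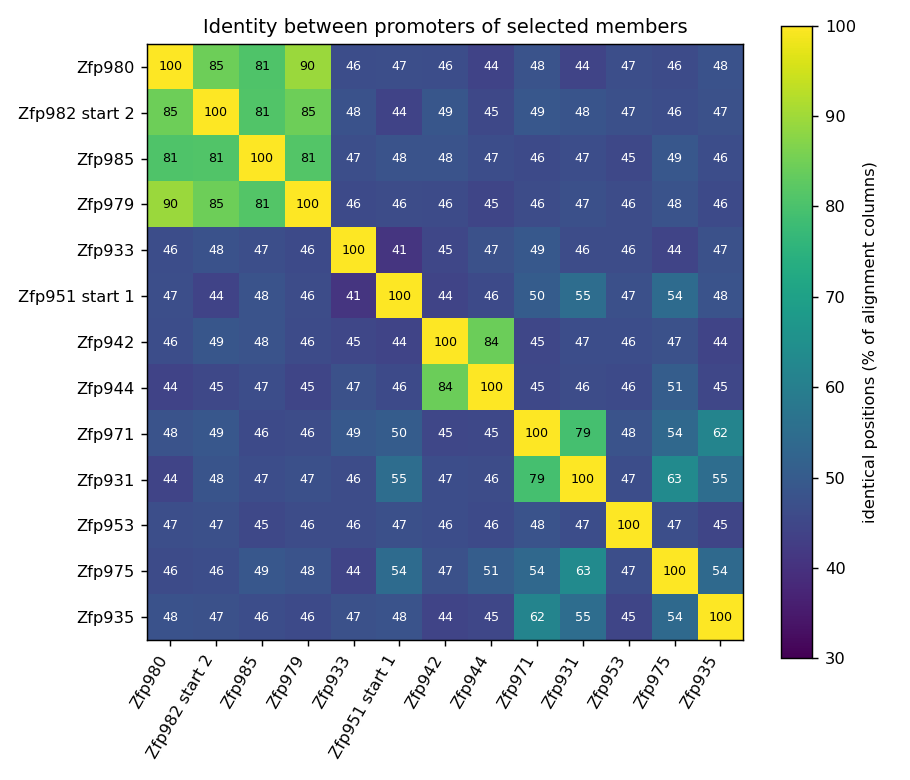
Percent of identical positions in pairwise alignments of 300-base promoters (both axes list genes, colour and number give the percent) for the chromosome 4 members and selected others. The block of Zfp980, Zfp982, Zfp985 and Zfp979 stands at 81 to 90, the pair of Zfp942 and Zfp944 at 84, and Zfp933 at no more than 49 to any gene shown.

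Zfp951 on chromosome 5 changed much like the chromosome 4 genes. It read 7.87, 8.01 and 8.05 in flox, 5.28, 4.90 and 4.85 in null and 7.45, 7.42 and 7.36 in null Eα cells, with no overlap between any of the groups. It fell by 2.97 in null cells (± 0.11, adjusted p = 1.23e-08), to 12.8% of the flox signal. It rose by 2.40 ± 0.11 from null to null Eα cells (adjusted p = 4.10e-07) and stayed lower than flox there (-0.57 ± 0.11, adjusted p = 0.00139).

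A second set of members was low in both β-catenin-null lines. Zfp961 on chromosome 8, whose protein binds the lysine tRNA primer binding site of retroviruses, read 9.87, 9.90 and 9.88 in flox, 7.58, 7.64 and 7.82 in null and 7.81, 7.64 and 7.74 in null Eα cells. The null and null Eα arrays overlapped each other and lay about 2 log2 units below all flox arrays. Its differences from flox were -2.20 ± 0.08 (adjusted p = 1.17e-08) in null and -2.15 ± 0.08 (adjusted p = 3.82e-08) in null Eα cells, and the difference between the 2 lines was 0.05 ± 0.08 (adjusted p = 0.67). The brighter genes of chromosome 8 were themselves lower, with median differences of -0.54 and -0.68 in the 2 lines. Whether a change of that chromosome as a whole has a part in it was not tested.

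Zfp953 on chromosome 13 read 8.84, 8.87 and 8.89 in flox, 7.03, 6.93 and 7.05 in null and 7.27, 7.27 and 7.20 in null Eα cells. Its differences from flox were -1.87 ± 0.07 in null and -1.62 ± 0.07 in null Eα cells (adjusted p = 1.03e-08 and 5.94e-08). The 0.25 between the lines was called (adjusted p = 0.0186), but not without null replicate 2 or without null Eα replicate 1 or 2, where its adjusted p reached 0.0673. Zfp944 on chromosome 17 fell in both lines, with differences of -1.20 in null and -1.09 in null Eα cells. Zfp939 on chromosome 7 did so with -1.04, to a dim level, and -0.94. Neither gene's difference between the 2 lines was called. Zfp930, also on chromosome 8, had differences of -0.58 and -0.63, both called, and lost both calls when each chromosome was centred on its brighter genes (-0.02 and 0.03).

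A further 3 genes fell at least 2-fold in null cells and were part of the way back in null Eα cells. Zfp975 on chromosome 7 read 7.90, 8.08 and 8.21 in flox, 6.72, 6.47 and 6.12 in null and 7.20, 7.66 and 7.07 in null Eα cells. Zfp935 on chromosome 13 read 8.32, 8.33 and 8.34, then 7.36, 6.94 and 6.77, then 7.67, 7.88 and 7.69 in the same order of groups. Zfp938 on chromosome 10 read 9.53, 9.54 and 9.49, then 8.17, 8.40 and 8.15, then 8.64, 8.71 and 8.72. In each of the 3 genes the null Eα arrays lay between the other groups without overlap. Differences from flox were -1.62, -1.31 and -1.28 in null and -0.75, -0.58 and -0.83 in null Eα cells, and the rises of 0.87, 0.73 and 0.45 between the lines were called (adjusted p = 0.00424, 0.00244 and 0.00224). With quantile normalization the null Eα differences from flox of Zfp975 and Zfp935 were no longer called.

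The neighbourhood on chromosome 17 held 8 members, Zfp948, Zfp983, Zfp942, Zfp943, Zfp947, Zfp944, Zfp946 and Zfp945 in genome order. Its median difference in null cells was smaller in size than the -3.04 of the chromosome 4 neighbourhood. In null cells 5 of the 8 fell and none rose, with a median of -0.36 and a range from -1.20 to 0.35, where 28.7% of all genes were called lower. In null Eα cells 5 fell, with a median of -0.49, where 31.6% of all genes were called lower. Between the lines 1 fell, where 18.1% of all genes did. With each chromosome centred on its brighter genes, the counts were 1 lower (Zfp944) and 2 higher (Zfp943 at 0.37 and Zfp946 at 0.58) in null cells, 2 lower (Zfp983 and Zfp944) in null Eα cells and 3 lower between the lines. Outside Zfp944 the called falls in null cells were Zfp945 (-0.48, adjusted p = 0.00867), Zfp942 (-0.48, adjusted p = 0.0237), Zfp983 (-0.43, adjusted p = 0.0219, dim in null) and Zfp948 (-0.30, adjusted p = 0.0497). All 4 of these calls were lost with each chromosome centred, and those of Zfp942 and Zfp948 also with quantile normalization. Calls of 3 of them also depended on single arrays. The Zfp948 call was lost without flox replicate 2 or 3, null replicate 2 or 3 or null Eα replicate 2, and the Zfp942 call without flox replicate 2 or 3 or null replicate 2 or 3. The Zfp983 call was lost without flox replicate 3 or null replicate 1. In null Eα cells Zfp942 was lower than in flox (-0.47, adjusted p = 0.0228), a call lost without flox replicate 2 or 3 or null Eα replicate 1 or 2. That call was also lost with each chromosome centred and with quantile normalization.

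Zfp947 fell in null Eα cells. It read 5.19, 5.63 and 5.73 in flox, 6.14, 5.49 and 5.53 in null and 4.85, 4.67 and 5.12 in null Eα cells, so that the null Eα arrays lay below the other 6. Its differences were -0.64 from flox (adjusted p = 0.0171) and -0.84 from null cells (adjusted p = 0.00934). The first was not called with each chromosome centred, or without flox replicate 2 or 3 or null Eα replicate 2. Zfp946 was not called, and its null Eα arrays were far apart at 7.75, 7.49 and 8.66. Without null Eα replicate 3, the high one, it was called lower in null Eα cells than in either other group. Zfp943 had null and null Eα differences from flox of 0.13 and -0.30, neither called, and the second was called without null Eα replicate 3. The genes before the neighbourhood, Zfp53 and Zfp52, were lower in null Eα cells than in flox by -0.46 and -0.25, and Zfp40 behind it by -0.35. None of these 3 was called in null cells, and the receptor gene Vmn2r113 was called in neither line.

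**Figure D5:**
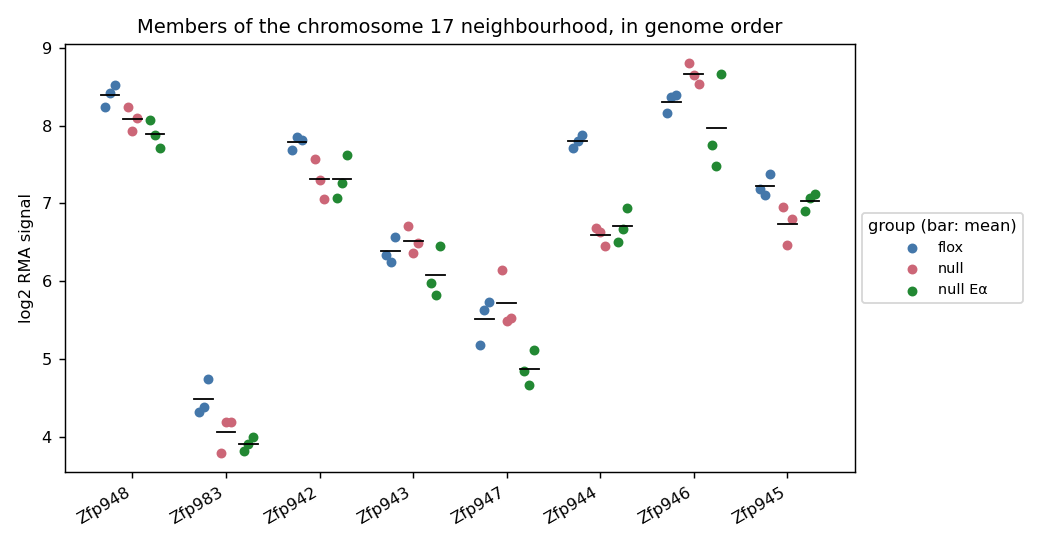
Log2 signal (y axis) on each array for the 8 members of the chromosome 17 neighbourhood in genome order (x axis), with flox in blue, null in red, null Eα in green and black bars for group means. Zfp944 has both lines near 6.6 against 7.8 in flox, while group means of the other members differ by less than 1 log2 unit, and the null Eα arrays of Zfp946 spread from 7.49 to 8.66.

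Few members rose. Zfp949 on chromosome 9 read 6.18, 6.40 and 6.44 in flox, 6.79, 6.68 and 7.05 in null and 6.36, 6.18 and 6.48 in null Eα cells. All null arrays lay above the other 6, with a rise of 0.50 ± 0.12 (adjusted p = 0.00472) and a fall of 0.50 back (difference -0.50, adjusted p = 0.00969). The other rise in null cells, Zfp950 at 0.25 (adjusted p = 0.0491), was dim in all 3 groups and lost its call when any single array other than flox replicate 3 was left out. Zfp971 on chromosome 2 read 10.16, 10.15 and 10.09 in flox, 10.01, 9.96 and 10.07 in null and 10.34, 10.80 and 10.25 in null Eα cells. Its rise of 0.33 over flox (adjusted p = 0.0403) leaned on null Eα replicate 2, without which it was 0.16 and was not called. That call was also lost without any 1 flox or any 1 null array, with each array centred and with only the groups compared. The rise of 0.45 from null to null Eα cells (adjusted p = 0.0208) was lost without null replicate 1 or 2, and was 0.28 without null Eα replicate 2.

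The rest changed by less. Zfp931, a neighbour of Zfp971, read 6.67, 6.95 and 6.67 in flox, 6.15, 6.36 and 6.57 in null and 5.35, 6.24 and 6.19 in null Eα cells. Its difference of -0.83 in null Eα cells was called (adjusted p = 0.00681) and that of -0.40 in null cells was not. Without null Eα replicate 1, the lowest array, the first was -0.55 and still called, and the second was called as well (adjusted p = 0.0186), as it was with only the groups compared. Zfp959 on chromosome 17 fell in both lines (-0.57 in null and -0.30 in null Eα cells), as did Zfp940 on chromosome 7 (-0.38 and -0.27). The null Eα call of Zfp959 was lost with each chromosome centred (-0.04, adjusted p = 0.656). Its null Eα arrays lay between the other groups without overlap, and its rise of 0.27 from null to null Eα cells was called (adjusted p = 0.0287). That call was lost with each array centred, with only the groups compared, and without null Eα replicate 1 or null replicate 1 or 3. Both calls of Zfp940 were lost with each chromosome centred and with quantile normalization, where its null differences were -0.12 and -0.16. Its null Eα call was also lost without flox replicate 1 or 3 or null Eα replicate 3. Zfp941 on chromosome 7 fell by 0.38 in null cells (adjusted p = 0.0417), and the call was lost without any 1 flox array and without null replicate 2 or 3. It was also lost with each chromosome centred, with quantile normalization and with only the groups compared. Zfp952 was lower in null Eα cells (-0.36, adjusted p = 0.0141), a call lost with each chromosome centred and without flox replicate 2 or null Eα replicate 1. Zfp974 was lower in null Eα than in null cells (-0.48, adjusted p = 0.0467), and kept that call only without null replicate 1 or null Eα replicate 3 among the arrays left out in turn. The call was also lost with only the groups compared. In all, 6 members were called in no comparison, namely Zfp933, Zfp943, Zfp946, Zfp954, Zfp957 and Zfp958.

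The partners of these proteins were measured as well. Of 33 listed genes of the Trim28 pathway and related zinc finger genes, 30 were measured. In null cells 15 fell and 8 rose (median -0.23), which is 76.7% called against 55.2% of all genes. In null Eα cells 13 fell and 5 rose (median -0.20), and the 18 called of 30 are a share near the 63.7% of all genes. Between the lines 10 rose and 9 fell (median -0.01), 63.3% against 31.7%. Trim28, the scaffold, read 12.14, 12.11 and 12.08 in flox, 11.54, 11.35 and 11.33 in null and 11.92, 11.94 and 11.79 in null Eα cells. The groups did not overlap, and the differences from flox were -0.70 ± 0.08 in null and -0.23 ± 0.08 in null Eα cells (adjusted p = 2.88e-05 and 0.029). With each chromosome centred, the null Eα difference turned to 0.06. Setdb1, which writes the repressive histone mark, was higher by 0.41 in null cells (adjusted p = 0.00743) and differed by -0.09 in null Eα cells (adjusted p = 0.455).

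The widest change of the list was in Dnmt3l, a cofactor of DNA methylation in germ cells and early embryos. It averaged 10.79 in flox, 4.47 in null, a dim level, and 10.56 in null Eα cells, with differences of -6.32 from flox to null and 6.09 from null to null Eα cells, both lower bounds in size. Zfp42 (Rex1), also among the stem cell markers above, followed the same order with means of 8.65, 5.34 and 8.26. Zfp57, which guards imprints, fell in both lines (-2.47 in null and -1.06 in null Eα cells). Zfp809, which binds the proline tRNA primer site of retroviruses, likewise fell (-1.52 and -1.13). Its levels, like those of Zfp961 and Zfp953, lay nearer to each other in the 2 lines than to flox. Cbx3, a heterochromatin protein gene, rose by 1.26 and 0.39. Atf7ip, a Setdb1 partner, fell in both (-0.85 and -0.86), as did Sumo2, a modifier of Trim28 (-0.66 and -1.06). Cbx3 had 7 features, Sumo2 5 and Atf7ip 2, and these values are of the brightest feature of each.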

How the data were processed

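Total RNA of 9 cultures was hybridised to an Affymetrix whole-transcript array, per the labels' protocols. The deposited values are log2 signals that the authors made with RMA per the submitters' processing notes, which name no version. They are 1 value per feature and array, were used as deposited, and carry no read depth, so the number of arrays limits precision. Whether the 9 arrays were normalized together is not given in the sources used here. A table pairing features with genes listed 23410 of 35556 features, 21789 with 1 symbol. The 1621 features with several symbols, 27 of them naming a member, and the 12146 features not in the table were left out. Sequences and gene order came from RefSeq tables (GRCm38.p6).

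Groups were compared with limma 3.58.1 under R 4.3.3 by lmFit with eBayes, two-sided and with 1 fit for the 9 arrays (residual degrees of freedom 6, prior 4.04), with Benjamini-Hochberg adjustment over 19938 genes. The procedure was tested on simulated data. Promoters were aligned in pairs with Biopython 1.88. The members and lists were chosen with earlier results of these data known. Named genes were the 8 largest called rises and falls per comparison, the 5 brightest members, all members of a neighbourhood (at least 5 members with at most 10 other genes between neighbours) with its flanking genes, Zfp961 and Zfp982, and of the pathway list Trim28, Setdb1 and the 4 smallest p per comparison. Other genes, among them Rps19-ps3, were named after their values were seen. Same-numbered replicates deviated together with correlations of -0.03 to 0.26, so numbers were not taken to pair samples. The 17 alternatives were leaving out each array, the replicate number as a block, quantile normalization, centring arrays or chromosomes, leaving out genes with a mean below the median of all genes, averaging features, fitting only the groups compared, and a trended robust prior.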

Additional observations from a re-analysis of the deposited data

How the results depend on the processing

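Of the 57 called member differences, 35 stayed called in the same direction under every alternative run for them, 15 of them in null against flox, 9 in null Eα against flox and 11 between the lines. All 17 alternatives were run for 25 of the 35, and 16 for the other 10, whose genes dropped out where genes with a mean below the median of all genes were left out. The null-minus-flox calls of Zfp980, Zfp991, Zfp985, Zfp979, Zfp982, Zfp951, Zfp961 and Zfp953 were among the 35, with Zfp985 and Zfp982 among the 10. Centring each chromosome on its brighter genes had the widest effect, and it moved the median over all genes from 0.06 to 0.21 in null and from 0.07 to 0.31 in null Eα cells. With it, 6 members were called higher and 14 lower in null cells (median -0.22), and 5 higher and 11 lower in null Eα cells (median -0.066), while all genes split into 9155 higher and 4672 lower in null cells in place of 5285 and 5719. It turned Zfp958 to 0.45 in both lines, and in null Eα cells Zfp930 to 0.031, Zfp940 to 0.010, Trim28 to 0.055 and Zfp52 to 0.0081. It turned Atf7ip to 0.38 between the lines. Quantile normalization turned Zfp940 to 0.052 and 2510039O18Rik to 0.25 in null Eα cells, with member medians of -0.36 in null and -0.27 in null Eα cells. Centring each array on its median gave a member median of -0.43 and 0 members higher in null Eα cells, and 11 higher and 6 lower between the lines. Members called higher in null cells were 1 with the genes below the median left out, array centring, quantile normalization or the trended robust prior, and 1 to 2 with an array left out. Members called higher in null Eα cells were 0 with only the groups compared, and 0 to 2 with an array left out. Members called lower between the lines were 5 with chromosome centring and 5 with quantile normalization, and 2 to 6 with an array left out. With genes below the median left out, 7288 genes were called in null and 7169 in null Eα cells, since fewer were tested, and the median over the 23 members left was -0.57 in null cells and 0.25 between the lines. With an array left out, the member medians ranged from -0.57 to -0.43 in null and from -0.44 to -0.33 in null Eα cells. The causes of the other changes were not tested.

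With the replicate number as a block, 2 members were called higher in null Eα cells and 5 lower between the lines, and 22, 20 and 17 members were called in the 3 comparisons. The numbers are not known to pair the samples.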
